A study of Mus musculus with 11 samples.

Results

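Cardiac neuron, catecholamine and neural crest genes were followed in whole hearts from Pde2A-/- and Pde2A+/+ mouse embryos. The 8 genes, Phox2a, Th, Dbh, Ddc, Prph, Npy, Sox10 and Foxd3, were given as a list of symbols and matched to the gene identifiers of the deposited counts. They are 8 of 55487 genes in those counts, and 7 of them had at least 10 counts over the 11 hearts and could be tested among 24177 genes. Foxd3 had no count in any heart.

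The study asked which transcripts differ in embryonic hearts that lack the phosphodiesterase Pde2A, an enzyme that degrades cAMP and cGMP. RNA was sequenced from 5 Pde2A-/- hearts (replicates A, B, 14, D and 15) and 6 Pde2A+/+ hearts (replicates 7, 11, 6, 8, H and E), all untreated, at E14.5. The knockout carries the Pde2A<tm1Dgen> allele on a mixed B6; 129P2 background, a germline allele present in all cells, and both genotypes came from heterozygous parents. Embryos of both sexes were used, the sex of each heart is not given, and neither litter nor batch is stated, so the p-values measure the spread between these hearts.

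The neurons of the heart and their glia come from the neural crest. Sympathetic neurons make noradrenaline from tyrosine: tyrosine hydroxylase (Th) forms L-DOPA, aromatic L-amino acid decarboxylase (Ddc) forms dopamine and dopamine beta-hydroxylase (Dbh) forms noradrenaline. Ddc is also known to be made by embryonic heart muscle, from a promoter that is imprinted there. Noradrenaline acts on beta-adrenergic receptors, which raise the cAMP that Pde2A removes.

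The reads counted on genes numbered between 35865537 and 42835382 per heart. Over all genes, 3532 passed an adjusted p of 0.05 by edgeR's quasi-likelihood test, 14.6% of those tested, with 2160 higher and 1372 lower in Pde2A-/- hearts. Pde2a itself could not check the genotype labels. It had 0 to 2 counts in every heart of both genotypes, because the gene model Gm45837 covers most of it on the same strand and reads lying on both genes are counted on neither.

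Some libraries stood apart by transcripts of other tissues. Pde2A+/+ replicate 7 held transcripts of the thymus, with 1249 counts of Rag1 and 417 of Foxn1 against at most 7 and 1 in the Pde2A-/- hearts. The summed thymus markers reached 53.4 CPM (counts scaled to a common library size) in Pde2A+/+ hearts and lay between 0.0747 and 0.183 CPM in Pde2A-/- hearts. Pde2A+/+ replicate 11 held 192 counts of the lung marker Nkx2-1 and 157 of the foregut marker Shh, against at most 11 and 7 in Pde2A-/- hearts. The lung markers Sftpc, Sftpb and Cldn18 had 0, 0 and 4 counts in it. The foregut markers Krt5 and Trp63 were higher in replicate 7 (3655 and 481 counts) than in replicate 11 (172 and 123). Barx1, also a foregut marker, was higher in replicate 11 (29 against 8). Liver transcripts were highest in Pde2A+/+ replicate E, with 1942 counts of Alb. Pde2A+/+ replicates H and 11 had 635 and 621 counts of Alb, and Pde2A-/- replicate D had 416. The skeletal muscle gene Myog was highest in Pde2A-/- replicate B, with 173 counts against 27 to 90 in Pde2A+/+ hearts. Transcripts of other tissues were thus found in both genotypes. Results are therefore also given without replicates 7 and 11, an alternative chosen after the data had been seen.

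Per kilobase of exon and scaled to a common sum per heart, the 8 genes spanned a wide range of levels. Ddc stood at a median of 105.8 over the 11 hearts and was above every other member in all 11. Prph followed at 1.93, Npy at 1.13, Dbh at 0.883 and Sox10 at 0.607, each above the next in 8 or 9 of 11 hearts. Th had a median of 0.358 and Phox2a of 0.249, but within single hearts Phox2a was the higher of the pair in 8 of 11, so that the medians do not order them. Ddc is thus listed far above the enzyme before it and the enzyme after it in the pathway.

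Between the genotypes, 1 of the 7 tested genes passed, Npy, which was higher in Pde2A-/- hearts. Of all genes tested, 8.93% were called higher and 5.67% lower, 14.6% in all, so that 1 of 7 is close to the background and is not a result about the group. In 0 of the 7 did the genotypes fail to overlap, against 8.49% of all genes (5.38% higher and 3.11% lower). As log2 fold changes, the 7 genes had a median of 0.38 and all genes tested one of -0.02.

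**Figure D1:**
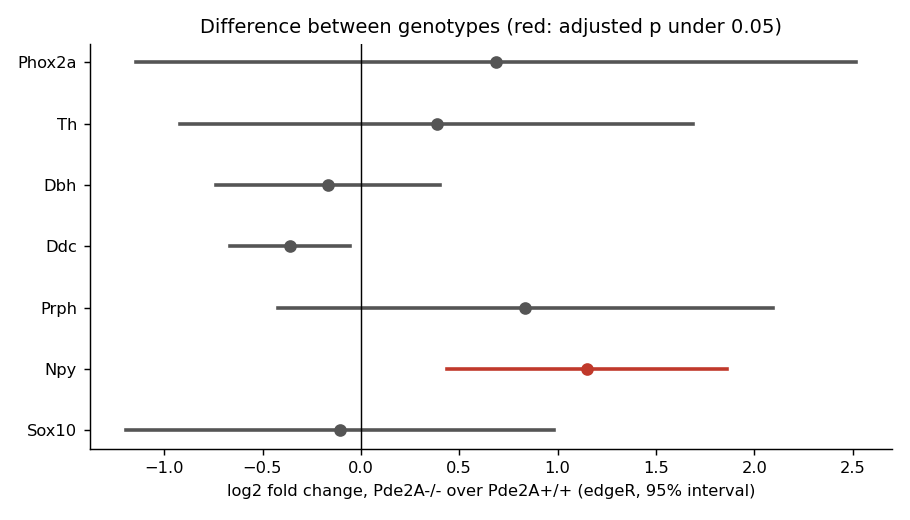
Log2 fold change of Pde2A-/- over Pde2A+/+ hearts (horizontal axis) for the 7 tested genes, with points for the edgeR estimates and bars for the 95% intervals. The interval of Npy, in red, runs from 0.44 to 1.86. That of Ddc ends just below 0, at -0.05, without a call after adjustment, and the intervals of Phox2a, Th, Prph and Sox10 each span more than 2 log2 units.

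Phox2a encodes a homeodomain transcription factor of autonomic neurons. It had 4, 2, 32, 14 and 47 counts in Pde2A-/- replicates A, B, 14, D and 15. In Pde2A+/+ hearts it had between 0 and 41 counts with a median of 5.5, the highest in replicate 11 and the next, 17, in replicate 8. Low and high hearts were found in both genotypes and the ranges overlapped almost fully. Mean levels were 0.526 ± 0.522 CPM (SD, n = 5) and 0.326 ± 0.413 CPM (SD, n = 6). The log2 fold change was 0.69 with a 95% interval from -1.15 to 2.52 (adjusted p = 0.644, edgeR). The spread between hearts of a genotype was a biological coefficient of variation of 99.7%, and only 1.70% of tested genes had a larger one. Without replicates 7 and 11 the log2 fold change was 1.52 (adjusted p = 0.288), and without Pde2A-/- replicate 15 it was 0.05. The exons of Phox2a overlap those of Inppl1 on the opposite strand, which had 100546 counts over all hearts, so that the Phox2a count relies on the strand of the reads.

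Th, the rate-limiting enzyme of catecholamine synthesis, had 3, 5, 20, 13 and 25 counts in the Pde2A-/- hearts in the same order. The Pde2A+/+ hearts had between 2 and 23 counts with a median of 7.5. Its hearts fell in nearly the same order as for Phox2a, with replicates 15, 11, 14, 8 and D at the top of both, and the genotypes overlapped. The means were 0.349 ± 0.257 CPM (SD, n = 5) and 0.265 ± 0.217 CPM (SD, n = 6), with a log2 fold change of 0.38 and an interval from -0.92 to 1.69 (adjusted p = 0.727, edgeR). Without Pde2A-/- replicate 15 the log2 value was -0.0056, and without replicates 7 and 11 it was 0.70 (adjusted p = 0.515).

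Ddc, which turns L-DOPA into dopamine, was the abundant member. It had 5049, 5513, 5520, 3860 and 3895 counts in Pde2A-/- replicates A, B, 14, D and 15. The Pde2A+/+ hearts ranged from 3924 counts in replicate 11 to 8162 in replicate H, with a median of 6321.5. No Pde2A-/- heart exceeded 137.4 CPM, whereas 4 of the 6 Pde2A+/+ hearts did, and replicates 8 and 11 lay within the Pde2A-/- range or just under it. The means were 122.7 ± 14.4 CPM (SD, n = 5) and 157.4 ± 35.4 CPM (SD, n = 6). The log2 fold change was -0.36 with an interval from -0.66 to -0.05, all below 0, but the adjusted p over all genes was 0.105 (edgeR). The value passed with DESeq2 (adjusted p = 0.0487), without Pde2A+/+ replicate 11 (log2 fold change -0.45, adjusted p = 0.0261) and without replicates 7 and 11 together (-0.45, adjusted p = 0.0426). It did not pass in the other 10 of the 11 fits that left out 1 heart (adjusted p up to 0.224, edgeR). Nor did it pass in the edgeR alternatives on all hearts (adjusted p 0.0798 to 0.120).

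Dbh, the last enzyme of noradrenaline synthesis, had 25, 34, 27, 30 and 33 counts in the Pde2A-/- hearts. In Pde2A+/+ hearts it had 23 to 52 counts with a median of 26, and replicates 8 and 11 stood above all other hearts of both genotypes at 1.36 and 1.33 CPM. The Pde2A-/- hearts lay inside the Pde2A+/+ range. The log2 fold change was -0.17 with an interval from -0.74 to 0.40 (adjusted p = 0.726, edgeR), and without replicates 7 and 11 it was -0.08. Without Pde2A+/+ replicate 8 it was 0.0077.

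Prph encodes peripherin, an intermediate filament of peripheral neurons. It had 33, 48, 100, 80 and 168 counts in the Pde2A-/- hearts and between 17 and 140 counts, with a median of 25, in the Pde2A+/+ hearts. All 5 Pde2A-/- hearts were above the 4 lowest Pde2A+/+ hearts, but replicates 8 and 11 were at 1.65 and 3.80 CPM, inside the Pde2A-/- range. The means were 2.27 ± 1.49 CPM (SD, n = 5) and 1.27 ± 1.32 CPM (SD, n = 6). The log2 fold change was 0.84 with an interval from -0.42 to 2.10 (adjusted p = 0.369, edgeR). It was 1.57 without Pde2A+/+ replicate 11 (adjusted p = 0.0506), 1.53 without replicates 7 and 11 (adjusted p = 0.0851) and 0.41 without Pde2A-/- replicate 15.

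Npy, the neuropeptide that sympathetic neurons release together with noradrenaline, rose in Pde2A-/- hearts. It had 6, 26, 18, 15 and 9 counts in replicates A, B, 14, D and 15, and between 5 and 8 counts with a median of 6.5 in the Pde2A+/+ hearts. In CPM, 4 of the 5 Pde2A-/- hearts were above every Pde2A+/+ heart, and replicate A, at 0.157 CPM, was inside their range of 0.131 to 0.219 CPM. The means were 0.377 ± 0.179 CPM (SD, n = 5) and 0.169 ± 0.0324 CPM (SD, n = 6). The log2 fold change was 1.15 with an interval from 0.44 to 1.86 (SE 0.33, adjusted p = 0.0348, edgeR). The call rests on few reads: it was lost in 7 of the 11 fits that left out 1 heart (B, 14, D, 7, 8, H or E), where the log2 fold change ran from 0.90 without replicate B to 1.35 without replicate A. Without replicates 7 and 11 it was 1.17 (adjusted p = 0.0850).

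Npy shared 3 of its 5 highest hearts with Phox2a, replicates 14, D and 15, but not the highest. It was highest in Pde2A-/- replicate B, which had 2 counts of Phox2a, 5 of Th and the most counts of the red cell gene Slc4a1, 20943. In Pde2A+/+ replicate 11, which had 41 counts of Phox2a, Npy had 7 counts. Of the tested markers of red cells, macrophages and megakaryocytes, 3 of 5, 4 of 4 and 2 of 4 were higher in Pde2A-/- hearts, against 8.93% of all genes. The other red cell markers, Alas2 and Hba-a1, had log2 fold changes of -0.60 and -0.51 and did not pass (adjusted p = 0.221 and 0.253, edgeR). They were highest in Pde2A+/+ replicate 11, with 13232 and 110905 counts, against 6716 and 55282 in replicate B. The summed macrophage markers lay between 131.5 and 173.9 CPM in Pde2A-/- hearts and between 66.9 and 107.8 CPM in Pde2A+/+ hearts. The summed megakaryocyte markers lay between 24.9 and 32.1 CPM and between 12.3 and 23.3 CPM. The summed erythroid markers overlapped, with 1231 to 2094 CPM against 926 to 3494 CPM. Their part in the Npy result was not tested. In whole hearts, more cells of a type and more RNA per cell cannot be told apart.

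Sox10 encodes a transcription factor of neural crest cells and of the Schwann cell lineage. It had 20, 23, 19, 51 and 17 counts in the Pde2A-/- hearts and between 7 and 73 counts, with a median of 22.5, in the Pde2A+/+ hearts. Replicate D and replicate 11 stood alone at the top of their genotypes, at 1.42 and 1.98 CPM, and the other hearts overlapped. The log2 fold change was -0.10 with an interval from -1.19 to 0.98 (adjusted p = 0.916, edgeR). It turned positive, 0.48, without Pde2A+/+ replicate 11 and was 0.60 without replicates 7 and 11 (adjusted p = 0.388).

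Foxd3, a transcription factor of early neural crest cells, had 0 counts in all 11 hearts. With a limit of 3 counts, a count of 0 allows up to 0.0700 to 0.0836 CPM in a single heart and 0.00706 CPM over the 425060395 counts of all hearts, for counting error only. A small RNA gene, Gm23366, lies in its exon on the same strand and also had 0 counts. No difference between genotypes was detectable at this depth.

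**Figure D2:**
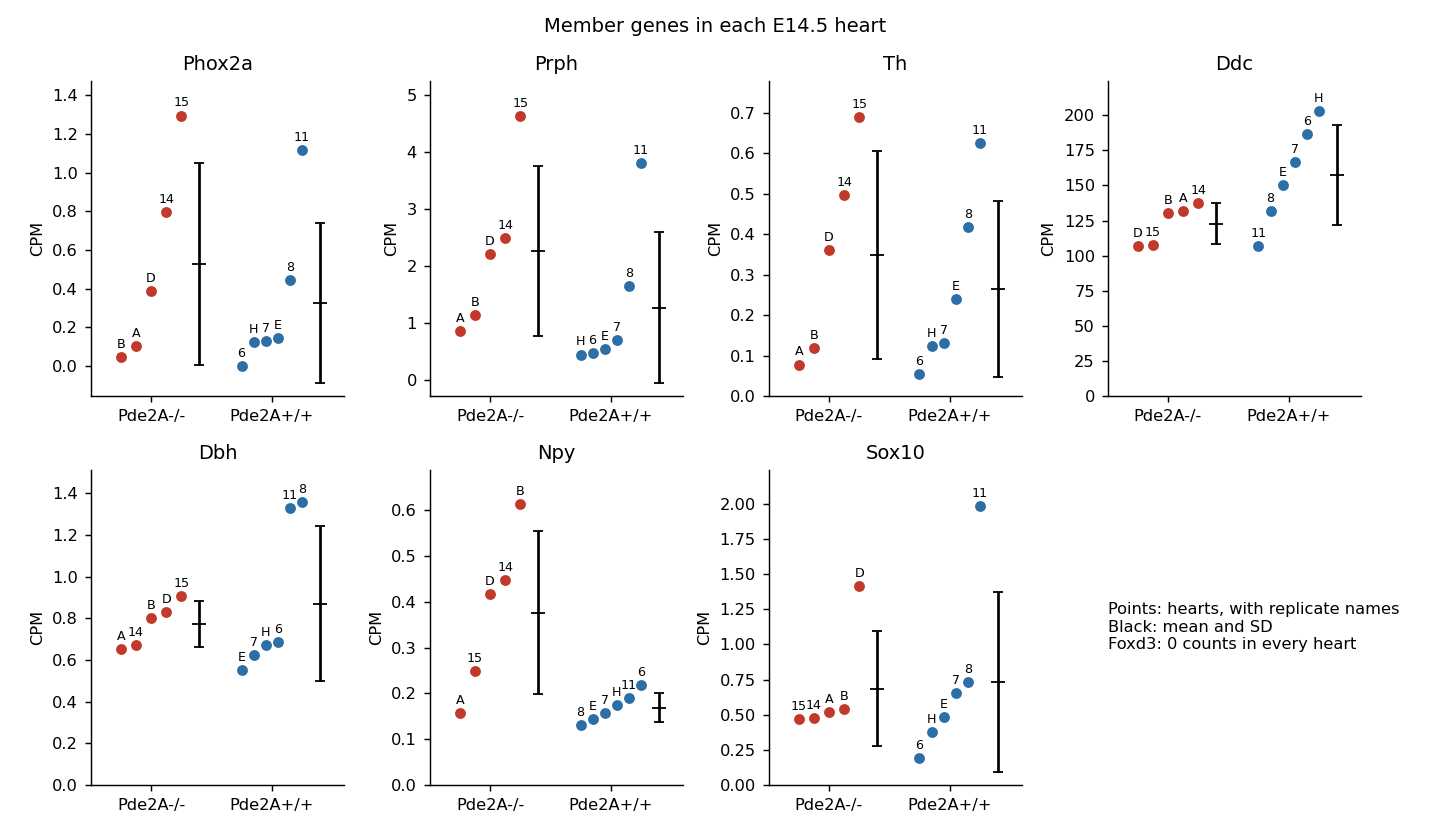
CPM of the 7 detected genes (vertical axes, each on its own scale) in the 5 Pde2A-/- hearts (red) and the 6 Pde2A+/+ hearts (blue), with a point for each heart, its replicate name, and the mean and SD in black. Replicates 14, D, 15, 8 and 11 stand high for Phox2a, Th and Prph in both genotypes, 4 of the 6 Pde2A+/+ hearts exceed every Pde2A-/- heart for Ddc, and 4 of the 5 Pde2A-/- hearts exceed every Pde2A+/+ heart for Npy.

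Several neuronal genes were high in the same hearts of both genotypes. Replicates 14, D and 15 of Pde2A-/- and 8 and 11 of Pde2A+/+ held the 5 highest levels of Phox2a, of Th and of Prph. They also held the 5 highest of Chrna3, a nicotinic receptor subunit of autonomic ganglia, and of the neuronal cytoskeleton genes Stmn3 and Ina. Phox2a had 14 or more counts in these 5 hearts and at most 6 in the other 6. Stmn3 and Ina were named from a list of 22 genes after their values had been seen, and its genes differed. Syp and L1cam also had their 5 highest levels in these 5 hearts. Tubb3 was highest in replicate 11 but next in 7 and B, at 4.22 and 4.20 CPM, and was at 1.83 CPM in D. Elavl4 was highest in replicate 8 but lowest in D, at 2.55 CPM. Dcx was highest in B, at 3.66 CPM, and Stmn2 in replicate 7. Of the remaining members, Dbh shared 4 of its 5 highest hearts with Phox2a, Sox10 and Npy 3, and Ddc 1.

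Over the 7 detected genes, 4 of 21 pairs passed an adjusted p of 0.05 over the 11 hearts, by Pearson and by Spearman permutation tests on log2 CPM. These were Phox2a with Th, Phox2a with Prph, Th with Prph, and Ddc with Prph. No coefficient is given for Phox2a, whose hearts fell into a low and a high set. Th and Prph were highest in the same 5 hearts. They had 13 to 25 and 63 to 168 counts there, against 2 to 10 and 17 to 48 in the other hearts. Coefficients of Th and Prph over the 11 hearts span both sets, and a relation within either set was not tested. For Th and Prph, r was 0.88 (permutation p = 0.0009, adjusted 0.00472) and rho 0.82 (permutation p = 0.00326, adjusted 0.0205). Without the 2 hearts farthest from the median of Th, r was 0.81, and within the 6 Pde2A+/+ hearts it was 0.89 (exact permutation p = 0.0125). Without replicates 7 and 11, r was 0.85.

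Ddc went the other way. Its correlation with Prph was r = -0.88 (permutation p = 0.00049, adjusted 0.00343) and rho = -0.84 (permutation p = 0.00243, adjusted 0.0205). It was -0.83 without the 2 hearts farthest from the median of Ddc and -0.94 within the 6 Pde2A+/+ hearts (exact permutation p = 0.00556). Without replicates 7 and 11, r was -0.85. The coefficients over the 11 hearts, here and above, were taken without removing the genotype means. The 5 Pde2A-/- hearts are too few for a value of their own. Among them, replicate 14 had the highest Ddc, 137.4 CPM, and the second highest Prph, 2.49 CPM. The 3 hearts with the lowest Ddc, replicates 11, D and 15, were all among the 5 highest for Phox2a, Th and Prph.

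Some markers of other cells of the heart were highest in the same hearts, though in another order. The 5 highest levels of Upk3b, Upk1b and Wt1, the 3 epicardial markers examined, were in the same 5 hearts as those of Phox2a. Upk3b, a uroplakin of the epicardial mesothelium, reached 202.6 CPM in replicate 11 and 195.3 CPM in replicate 8, and was lowest in replicate H at 66.0 CPM. Summed over the 3 markers, the epicardial level ran from 149.2 to 243.6 CPM in Pde2A-/- hearts and from 102.2 to 274.1 CPM in Pde2A+/+ hearts, and 0 of 3 passed between genotypes. The 5 heart muscle markers differed among themselves. Myh6, a myosin heavy chain, shared all 5 of its highest hearts with Phox2a, Nppa, the atrial natriuretic peptide, and Myl7, the myosin light chain that is strongest in the atria, shared 4 each, Actc1, cardiac actin, shared 3, and Tnnt2, cardiac troponin T, shared 0. The 4 hearts highest in Ddc, replicates H, 6, 7 and E, were all among the 5 highest in Tnnt2. Which parts of the heart each library held was not measured, and their part in these orders was not tested.

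**Figure D3:**
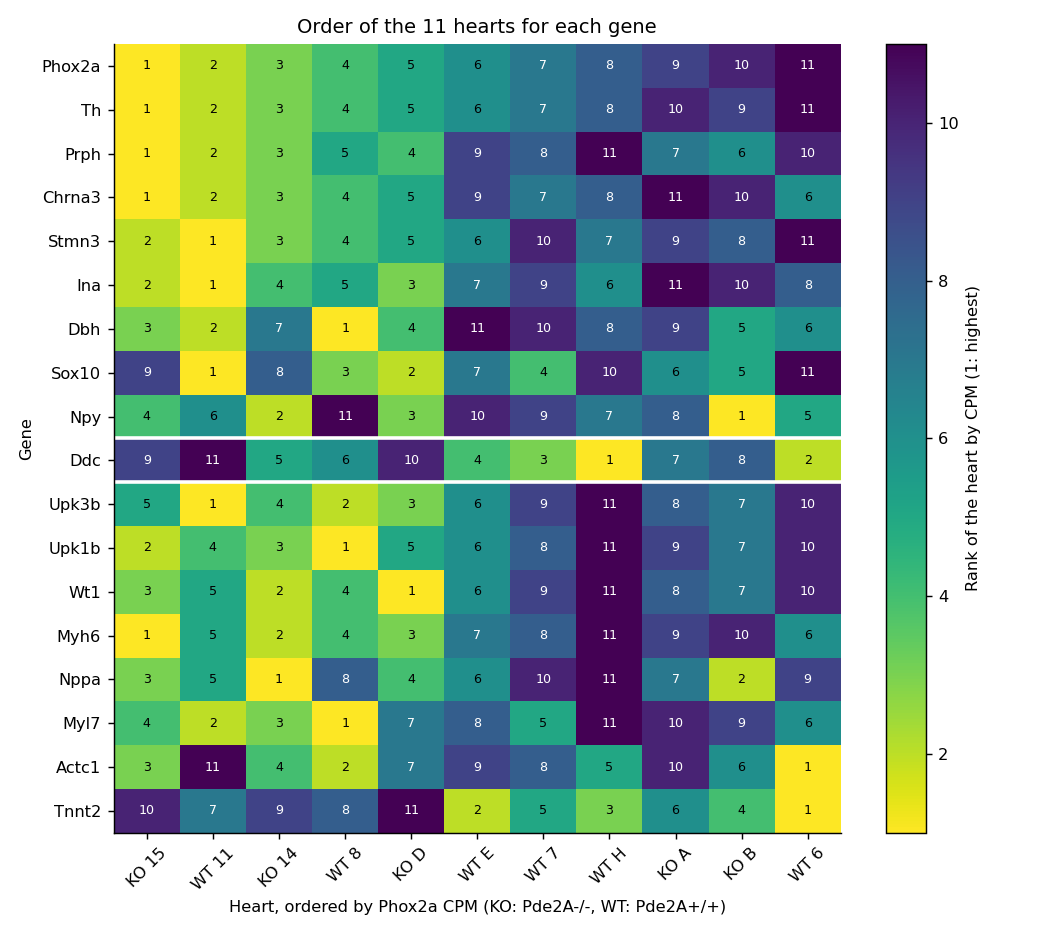
Rank of each heart by CPM (1 is the highest) for each gene, with the 11 hearts ordered by Phox2a from left to right. The 5 hearts on the left, KO 15, WT 11, KO 14, WT 8 and KO D (KO for Pde2A-/-, WT for Pde2A+/+), hold ranks 1 to 5 for Phox2a, Th, Prph, Chrna3, Stmn3, Ina, Upk3b, Upk1b, Wt1 and Myh6, while Ddc and Tnnt2 rank highest among hearts on the right.

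By the likeness of their deviations from the genotype means over the 11 hearts, the genes nearest to Ddc among 14023 were Cda (r = 0.97) and Ppp6r3 (r = 0.94). Those nearest to Prph were Car13 and Map3k9 (both r = 0.97), to Sox10 Tmod2 (r = 0.93) and Gpt2 (r = 0.91), and to Dbh Gm5905 (r = 0.91) and Actg2 (r = 0.89). These coefficients are the highest of many and are given as a description.

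The promoters of 7 of the 8 members were read from RefSeq (GRCm38.p6), and Sox10 was not searched. Each runs from 250 bases before to 50 after an annotated start. They were searched on both strands for the cAMP response element TGACGTCA, which the factor CREB binds, and for its core of 5 bases, TGACG or CGTCA outside a full element. Of 32851 promoters of the same length, 588 (1.79%) hold the full element. TGACG or CGTCA, here also counted inside a full element, is in 6837 (20.8%). Shown first are those of the 3 genes that shared their 5 highest hearts, with the element in capitals, then both entries of Ddc, which ran against them, and that of Npy, which rose.
Th, chr7:142899946-142900245, minus strand: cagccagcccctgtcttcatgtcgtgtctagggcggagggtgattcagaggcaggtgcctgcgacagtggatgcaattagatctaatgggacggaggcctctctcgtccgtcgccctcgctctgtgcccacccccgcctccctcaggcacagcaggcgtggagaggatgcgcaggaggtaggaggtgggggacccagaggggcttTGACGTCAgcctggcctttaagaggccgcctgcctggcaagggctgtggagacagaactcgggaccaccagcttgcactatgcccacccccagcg
Phox2a, chr7:101818063-101818362, plus strand: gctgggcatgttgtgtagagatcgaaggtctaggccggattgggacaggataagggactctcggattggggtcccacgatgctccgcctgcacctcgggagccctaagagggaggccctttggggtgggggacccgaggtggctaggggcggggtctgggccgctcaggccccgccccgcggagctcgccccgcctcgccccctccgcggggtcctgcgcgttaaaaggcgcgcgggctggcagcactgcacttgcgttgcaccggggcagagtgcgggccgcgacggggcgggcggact
Prph, chr15:99054924-99055223, plus strand: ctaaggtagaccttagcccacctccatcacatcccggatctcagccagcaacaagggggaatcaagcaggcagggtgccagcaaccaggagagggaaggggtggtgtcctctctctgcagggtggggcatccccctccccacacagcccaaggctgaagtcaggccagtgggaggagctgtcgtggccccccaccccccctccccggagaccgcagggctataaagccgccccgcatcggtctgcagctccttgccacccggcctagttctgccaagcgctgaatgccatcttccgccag
Ddc, chr11:11898095-11898394, minus strand: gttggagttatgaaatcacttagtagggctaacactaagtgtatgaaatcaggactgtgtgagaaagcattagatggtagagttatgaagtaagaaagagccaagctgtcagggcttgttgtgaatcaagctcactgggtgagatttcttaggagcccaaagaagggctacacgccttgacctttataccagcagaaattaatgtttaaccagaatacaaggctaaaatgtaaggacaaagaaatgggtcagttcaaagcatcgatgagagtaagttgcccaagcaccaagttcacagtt
Ddc, chr11:11890359-11890658, minus strand: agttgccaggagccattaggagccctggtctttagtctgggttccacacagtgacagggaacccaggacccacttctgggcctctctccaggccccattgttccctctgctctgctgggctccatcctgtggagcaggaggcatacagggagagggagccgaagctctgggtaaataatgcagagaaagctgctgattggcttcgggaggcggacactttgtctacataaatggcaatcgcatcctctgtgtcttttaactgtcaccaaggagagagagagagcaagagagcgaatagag
Npy, chr6:49822460-49822759, plus strand: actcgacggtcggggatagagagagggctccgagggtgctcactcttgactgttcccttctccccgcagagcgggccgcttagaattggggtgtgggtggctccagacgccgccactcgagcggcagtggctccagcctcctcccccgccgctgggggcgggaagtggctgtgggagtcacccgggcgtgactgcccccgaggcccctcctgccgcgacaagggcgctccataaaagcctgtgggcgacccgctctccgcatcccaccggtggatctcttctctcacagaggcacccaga

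The full element of Th begins 45 bases before the start. Phox2a, Prph, Npy and both Ddc entries hold neither the full element nor a core site in these 300 bases. Of the members not shown, Foxd3, which had no count, holds a full element 233 bases before its start, and Dbh a core site 222 bases before. Scg2, a granule protein of neurons and endocrine cells that rose in Pde2A-/- hearts, holds a full element 68 bases before its start. It was the only gene outside the members whose promoter was looked at singly. Those of the other list genes that passed were not, and a part of the element in the rise was not tested.
Scg2, chr1:79439977-79440276, minus strand: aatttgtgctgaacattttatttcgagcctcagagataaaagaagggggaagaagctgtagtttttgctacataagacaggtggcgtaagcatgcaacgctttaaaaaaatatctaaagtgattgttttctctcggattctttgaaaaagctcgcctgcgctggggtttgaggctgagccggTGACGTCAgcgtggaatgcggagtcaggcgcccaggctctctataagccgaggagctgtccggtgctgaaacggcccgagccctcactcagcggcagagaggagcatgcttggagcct

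Phox2a and Th lie on chromosome 7 with the targeted gene. The gap between Pde2a and Phox2a (101818313 to 101822726) is 305.5 kb, and 0 of the 3 tested genes between them passed. Th lies 41.4 Mb away. The other members are on chromosomes 2 (Dbh), 4 (Foxd3), 6 (Npy), 11 (Ddc) and 15 (Prph and Sox10).

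The wider pathways were read from 8 lists of 102 genes. Of 98 tested, 8 were higher and 5 lower in Pde2A-/- hearts, 13 of 98 against 14.6% of all genes, and their log2 fold changes had a median of 0.00. In 6 of 98 the genotypes did not overlap, against 8.49% of all genes. Without replicates 7 and 11, 3 were higher (Scg2, Rtn1 and Ednrb) and 2 lower (Pnmt and Sox11).

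Of the 14 genes that make, store or remove catecholamines, 1 was higher and 3 were lower. Slc18a1, the vesicular monoamine transporter of endocrine cells, rose by a log2 fold change of 1.32 (adjusted p = 0.0317, edgeR), from a mean of 0.317 ± 0.0953 to 0.795 ± 0.426 CPM (SD). Its call was lost without replicate 14, D, 15, 7, 6, H or E, and without replicates 7 and 11 (1.38, adjusted p = 0.0622). Pnmt, which turns noradrenaline into adrenaline, fell by 0.92 on the log2 scale (adjusted p = 0.0189), with 5 to 13 counts in Pde2A-/- hearts and 16 to 23 in Pde2A+/+ hearts and no overlap. It passed in all 11 fits that left out 1 heart. Spr, which makes the cofactor of Th, fell by 0.20 (adjusted p = 0.0403) without overlap, and the call was lost without replicate 14, D, 15, 7, 6, 8 or H and without replicates 7 and 11 (adjusted p = 0.0685). Counting that last fit, the Spr call was lost in 2 of the alternatives other than single-heart removal and kept in 7. Slc6a2, the noradrenaline transporter, fell by 1.48 (adjusted p = 0.0488) at 2 to 6 against 3 to 19 counts, and the call was lost in 9 of the 11 fits that left out 1 heart (all but those without B or H). Without replicates 7 and 11 it was at -0.99 (adjusted p = 0.160). Counting that fit, the Slc6a2 call was lost in 4 of the alternatives other than single-heart removal and kept in 3. Of 4 adrenal cortex markers, 3 were tested and 0 passed, and their sum ran from 0.551 to 0.861 CPM in Pde2A-/- and from 0.705 to 1.42 CPM in Pde2A+/+ hearts. Cyp11a1, an enzyme of steroid synthesis, was at -1.57 (adjusted p = 0.0597), with 1 to 5 counts in Pde2A-/- hearts and up to 22 in Pde2A+/+ hearts (replicate 7), Nr5a1 had 0 to 7 counts and Cyp11b1 0 to 5. The part of adrenal tissue in these results was not tested. Slc18a2, the transporter of monoamine neurons, was at 11.5 ± 1.35 and 11.3 ± 1.41 CPM (SD), with a log2 interval of the difference from -0.20 to 0.25.

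Of the neuronal cytoskeleton, synapse and granule genes, 3 of 22 were higher and none lower. Scg2 had 19, 24, 39, 31 and 43 counts in Pde2A-/- hearts and 5 to 18 in Pde2A+/+ hearts, a log2 fold change of 1.54 (adjusted p = 0.00945, edgeR) without overlap. It passed in all 11 fits that left out 1 heart, and without replicates 7 and 11 it was 1.61 (adjusted p = 0.028). Rtn1, a reticulon of neurons, and Gap43, a protein of growing axons, rose by log2 values of 0.50 and 0.33. The call of Rtn1 was lost without replicate 14, D, 6, H or E, and that of Gap43 without 14, 15 or E and without replicates 7 and 11 (0.30, adjusted p = 0.0852). Stmn2, a microtubule regulator of growing axons, was at -0.99 (adjusted p = 0.130), with its highest counts, 504 and 333, in Pde2A+/+ replicates 7 and 11. The part of the thymus and foregut transcripts of these libraries was not tested.

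Among 12 autonomic transcription factors, Ebf1 rose by 0.29 and Sox11 fell by 0.26 on the log2 scale, and both are made by many cells besides neurons. The call of Ebf1 was lost without replicate D and without replicates 7 and 11 (adjusted p = 0.0846), and that of Sox11 without 14, D or 8. Of 7 tested cholinergic genes, 1 passed: Slc5a7, the choline transporter, rose by 0.51 (adjusted p = 0.0387). The call was lost without replicate A, B, 14, D, 7, 6, 8 or H, and without replicates 7 and 11 (0.53, adjusted p = 0.0699). Counting that last fit, the Slc5a7 call was lost in 2 of the alternatives other than single-heart removal and kept in 7. Chrna3 was at 0.62 with an interval from -1.35 to 2.59, and Chat, the enzyme that makes acetylcholine, had 0 to 2 counts in every heart. None of 10 tested neuropeptides and Npy receptors passed, and Npy1r, a receptor of Npy, was at 1.07 (adjusted p = 0.0594) with DESeq2 at an adjusted p of 0.0138.

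Among 12 tested neural crest and Schwann cell precursor genes, 1 was higher and 1 lower. Ednrb, the endothelin receptor of crest cells that endothelium also makes, had 7437 to 9941 counts in Pde2A-/- hearts and 4794 to 7042 in Pde2A+/+ hearts. It rose by a log2 fold change of 0.50 (adjusted p = 0.00418, edgeR) without overlap, and passed in all 11 fits that left out 1 heart. Of the 3 endothelial markers 1 passed, and their sum ran from 749.6 to 812.1 CPM in Pde2A-/- and from 637.1 to 761.6 CPM in Pde2A+/+ hearts. The part of endothelium in the Ednrb result was not tested. Fabp7, a lipid binding protein of glial precursors, fell by 0.77 (adjusted p = 0.0339). The call was lost without replicate B, 14, 15, 11, 6, H or E, without replicates 7 and 11 (-0.74, adjusted p = 0.0698) and with Xist as a covariate (-0.67, adjusted p = 0.0658). Of 6 melanocyte genes, Mlana, a melanosome protein, rose by 1.38 (adjusted p = 0.0361). Its call was lost in 9 of the 11 fits that left out 1 heart (all but those without A or B) and without replicates 7 and 11 (1.25, adjusted p = 0.0877). Of 15 neurotrophic and guidance genes, 0 passed.

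**Figure D4:**
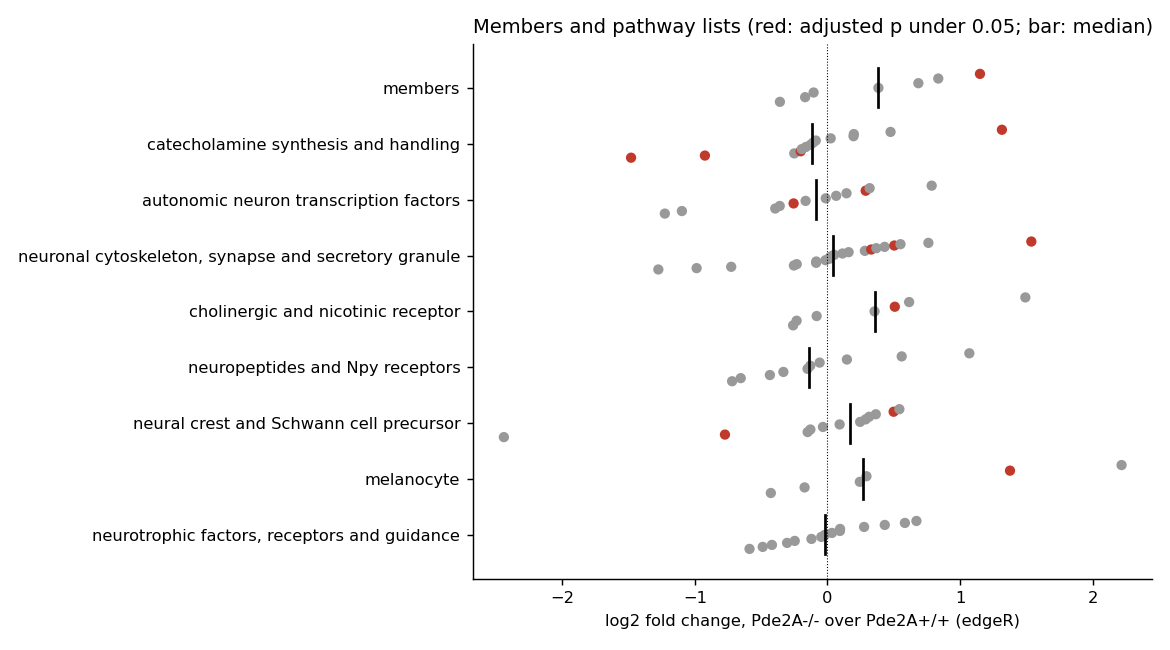
Log2 fold change of Pde2A-/- over Pde2A+/+ hearts (horizontal axis) for each tested gene of the members and of the 8 pathway lists (rows), with genes past an adjusted p of 0.05 in red and the median of each row as a black bar. The medians of the lists lie between -0.14 and 0.36, and red points lie on both sides of 0.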

How the data were processed

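The counts analysed are those the authors deposited: per the labels, stranded mRNA libraries were sequenced as single-end reads, and per the study's methods STAR mapped them to GRCm38 (mm10). STAR's per-gene table holds whole-number counts in 3 columns, for both strands and for each strand, without normalization, and the column with the larger total, on the strand of the gene, was used. Reads not assigned to a gene (19.6 to 22.4%) were left out. Names and exon lengths came from GENCODE M21, which matched 55227 of 55487 identifiers.

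A sum of 10 or more counts across all 11 hearts was required, and the genes left were fitted in edgeR 4.0.16 (R 4.3.3) with TMM and the quasi-likelihood test, genotype alone, with Benjamini-Hochberg adjustment over 24177 genes. A gene passed at an adjusted p under 0.05. CPM are counts scaled by the TMM library sizes. Log2 CPM used a prior count of 2. The fit was tested on simulated counts of 23701 genes with 200 altered by 2 log2 units, of which it found 199 with 8 wrong calls. The altered genes had a mean of at least 0.5 CPM and a spread typical of their level. Phox2a, Th and Npy lie below that mean, at 0.417, 0.303 and 0.263 CPM. The members also vary more, with a median biological coefficient of variation of 56.6% against 16.6% over all tested genes. Recovery was therefore not measured for genes like these. Correlations used 100000 permutations, or all of them within a genotype, two-sided.

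The members and lists were chosen with earlier results of these data known. Genes named were the 8 members, Pde2a, Chrna3, Slc18a2, Stmn2 and Ednrb, up to 4 genes per pathway list with the largest changes among those that passed at a mean of at least 0.5 CPM, and the 2 genes most like each member with a mean of at least 0.5 CPM. Pnmt, Slc6a2, Npy1r, Chat, Stmn3, Ina and single markers of other tissues were named after their values had been seen. Single results for some genes of the lists, which the counts include, are not reported here. Alternatives were DESeq2 1.42.0, its size factors, filterByExpr, no filter, counts that ignore strand, removal of the 14 globin genes, Xist or the naming style of the replicates as a covariate, and each heart left out in turn.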

Additional observations from a re-analysis of the deposited data

Results flagged for a closer look

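In 48 groups of 5 or 6 hearts (each named gene in each genotype), 5 showed a highest heart whose gap to the next was large against the range of the group by Dixon's test. Chance gives this in about 1 in 20 groups. Pde2A+/+ replicate 11 was the highest in 3 of them, with Prph at 3.80 CPM (the other hearts at most 1.65), Sox10 at 1.98 CPM (at most 0.732) and Slc6a2 at 0.516 CPM (at most 0.235, and 19 counts). Pde2A-/- replicate D was the highest for Sox10 at 1.42 CPM, against at most 0.543 CPM in the other 4. Pde2A-/- replicate B was the highest for Slc6a2 at 0.142 CPM, against at most 0.0783 CPM, which is 6 counts. Replicate 11 is the library with the Nkx2-1 and Shh transcripts. The part of other tissue in these values was not tested.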

How the results depend on the processing

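No paired analysis was possible because the 2 genotypes share no replicate name. Named genes past the threshold kept their direction in every alternative run, and DESeq2 gave no adjusted p for Slc6a2. Over all genes, 2354 were lower with DESeq2 and 744 without replicates 7 and 11, against 1372, and leaving out 1 heart gave 1288 (without D) to 2887 (without A) higher and 414 (without D) to 2165 (without A) lower. Of the members, 0 were higher with filterByExpr, where Npy was not tested, and 0 without replicates 7 and 11. With 1 heart left out, 0 or 1 was higher, 0 or 1 lower (Ddc, without replicate 11) and 0 or 1 did not overlap (Npy, without replicate A). DESeq2 called 1 member lower, Ddc, as did the fit without replicates 7 and 11. Npy passed in all 7 alternatives on all hearts that tested it (adjusted p 0.0241 to 0.0482). Of the pathway genes, 3 were higher and 2 lower without replicates 7 and 11, 3 were lower with Xist as a covariate, and leaving out 1 heart gave 3 (without 14) to 12 (without A) higher and 1 (without 14) to 8 (without A) lower.

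Signs turned only among genes that did not pass. With 1 heart left out, log2 fold changes ran from -0.0056 (without replicate 15) to 0.82 (without 11) for Th, from -0.27 (without E) to 0.0077 (without 8) for Dbh, from -0.54 (without D) to 0.48 (without 11) for Sox10, from -0.34 (without 15) to 1.45 (without 11) for Chrna3 and from -0.034 (without 8) to 0.090 (without 14) for Slc18a2. Sox10 was at 0.60 without replicates 7 and 11. Slc18a2 was at -0.069 with counts of both strands and at -0.00044 with the naming style as a covariate. The causes were not tested.

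Depth limits most members: Phox2a, Th, Npy, Dbh and Sox10 had at most 73 counts in any heart, and intervals from counting cover counting error only. Npy, Slc6a2 and Pnmt had at most 26 counts per heart.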
